A study of Mus musculus with 12 samples.

Results

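Adipocytes secrete chemokines, and the 10 genes described here encode ligands of that family: Ccl2, Ccl5, Ccl7, Ccl20, Cxcl1, Cxcl5, Cxcl9, Cxcl10, Cxcl12 and Cx3cl1. They were found as the probe sets that the platform annotation assigns to exactly 1 of these symbols, which gave 10 probe sets, 1 per gene, of 15267 genes tested. All RNA came from 3T3-L1, a mouse preadipocyte line that turns into fat cells in culture. On day 9 of differentiation all cells were given an adenovirus at a multiplicity of infection of 500, carrying either a negative control shRNA or an shRNA specific for TBLR1, the corepressor subunit encoded by Tbl1xr1. Adenoviral transduction was thus common to all 4 groups, and no sample without virus is among them. No other shRNA against TBLR1 is named, so loss of TBLR1 and other effects of this shRNA cannot be told apart. After 3 days the cells spent 2 h in Krebs-Ringer buffer and for the next 3 h received either nothing or isoproterenol at 10 µM, an agonist of β-adrenergic receptors. RNA was measured on 12 Affymetrix arrays, 3 for each combination of shRNA and treatment. Whether the 3 arrays of a group came from different cultures is not stated, and every p-value rests on their spread alone, which may be technical.

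Chemokines are small secreted proteins that attract leukocytes through G protein-coupled receptors and are named after the spacing of their first cysteines (CC, CXC and CX3C). Ccl2 and Ccl7 attract monocytes through CCR2. Ccl5 attracts T cells and monocytes, and Cxcl9 and Cxcl10 act on T cells and natural killer cells through CXCR3. Cxcl1 and Cxcl5 attract neutrophils through CXCR2. Cxcl12 retains CXCR4-bearing cells in tissue, Ccl20 is the ligand of CCR6, and Cx3cl1 is made as a membrane protein that adheres cells bearing CX3CR1. In general NF-κB drives many of the inflammatory chemokine genes, and interferon regulatory factors add to this at Ccl5, Cxcl9 and Cxcl10. In adipose tissue, Ccl2 is best known for drawing monocytes into the fat of obese animals.

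The targeted gene was lower on every array labelled TBLR1 shRNA. Tbl1xr1 read 7.20, 7.27 and 7.26 on the log2 scale on the untreated control arrays and 6.45, 6.47 and 6.43 on the untreated TBLR1 shRNA arrays, and with isoproterenol 7.23, 7.34 and 7.29 against 6.48, 6.41 and 6.37, leaving 57.7% and 54.9% of the control signal. Of 9 measured adipocyte markers, 8 lay above the median of all probe sets in each group; the exception was the leptin gene Lep, at the 28.6th to 32.9th percentile. Their summed signal on the linear scale was 72520 to 74650 on the 6 control shRNA arrays and 57360 to 59890 on the 6 TBLR1 arrays. Of 7 measured preadipocyte and fibroblast markers 2 rose and 3 fell with TBLR1 shRNA without isoproterenol, and 2 rose and 2 fell with it. Over all genes 37.7% and 41.7% were called in these comparisons, so a call is in itself common. Thy1 (0.86 and 0.87) and Pdgfrb (0.56 and 0.68) were higher in both, and Col1a1 (-0.81 and -0.94) and Dlk1 (-0.73 and -0.67) were lower in both. Their summed signal was 13460 to 13650 and 13110 to 13600 with control shRNA, and 12240 to 12870 and 12250 to 12770 with TBLR1 shRNA, without and with isoproterenol. Of 11 measured macrophage markers 10 lay below the median in every group, among them Adgre1, Itgam and Ptprc, the last at the 2.68th to 4.59th percentile. The exception was Cd14, a lipopolysaccharide co-receptor, which rose by 0.45 ± 0.09 with TBLR1 shRNA (SE, n = 3 arrays per group, adjusted p = 0.000565) and by 0.69 ± 0.09 with TBLR1 shRNA under isoproterenol (adjusted p = 6.73e-06). The summed signal of the macrophage list went with it, from 1126 to 1209 on untreated control arrays to 1308 to 1395 on untreated TBLR1 arrays, 1340 to 1522 on control arrays with isoproterenol and 1814 to 1932 with shRNA and agonist together. Among the dimmer macrophage markers, Ctss rose (0.27 and 0.33) and Csf1r fell (-0.12 and -0.22) with TBLR1 shRNA, without and with isoproterenol. Cd52 was called lower with TBLR1 shRNA only among arrays with isoproterenol (-0.17), and the rest were called in neither comparison. All 5 T cell and 6 endothelial markers measured lay below the median in every group, as did 4 of 5 neutrophil markers. An array reports no true zero, so these genes are dim rather than shown to be absent. In bulk samples a change in the number of cells of a type and a change in RNA per cell cannot be told apart.

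**Figure D1:**
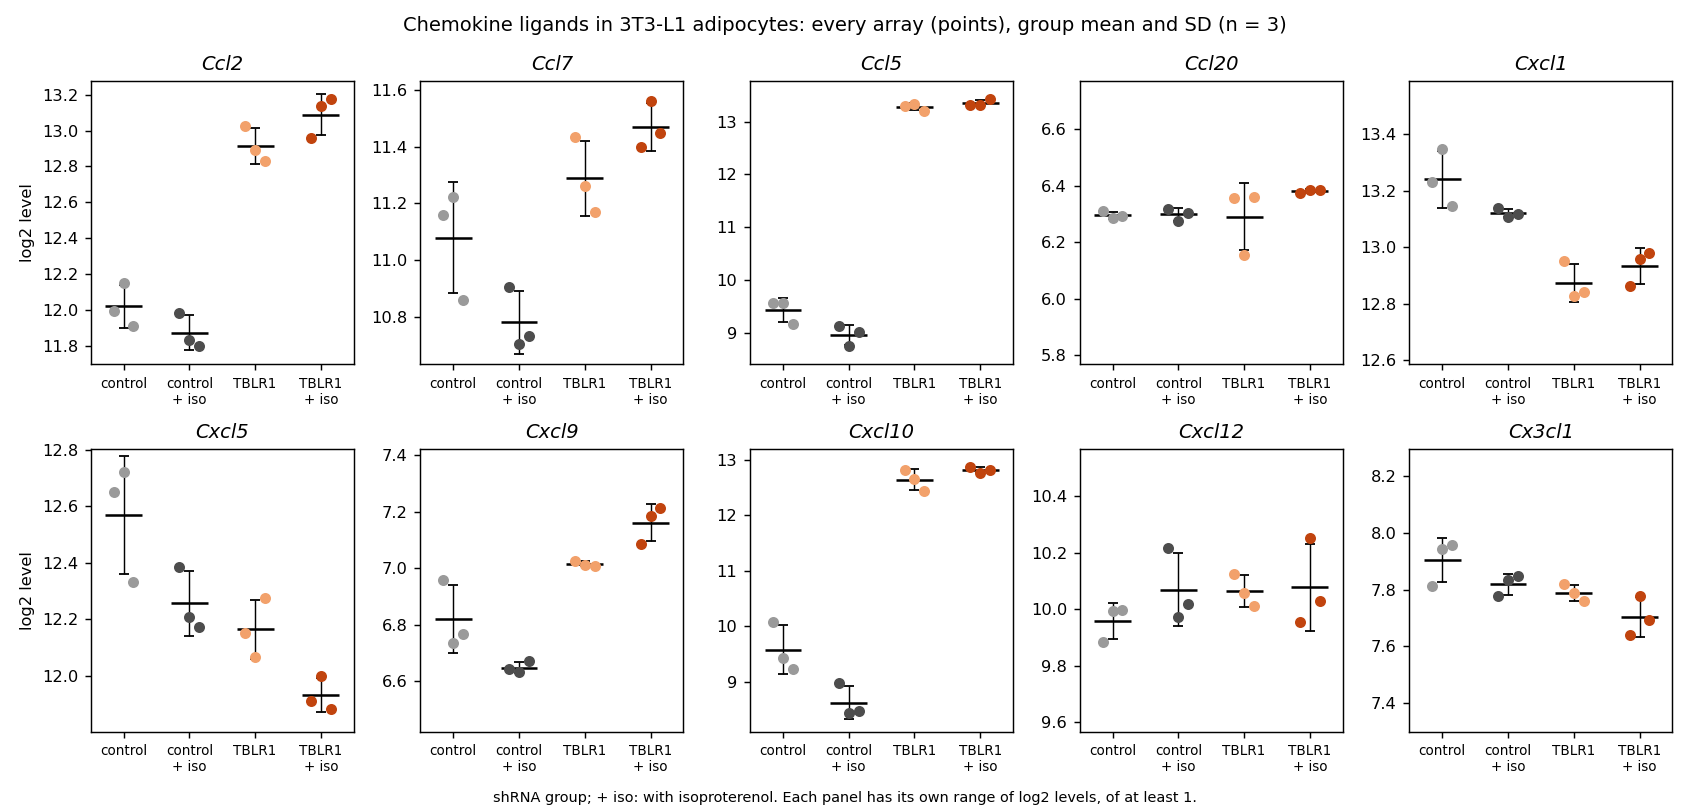
Log2 level of the 10 chemokine genes on each of the 12 arrays (points), with the mean and SD of each group of 3 (bars); each panel has its own range, of at least 1 log2 unit. Ccl5 and Cxcl10 lie near 13 on all 6 TBLR1 shRNA arrays and at 10.08 or lower on all 6 control arrays, whereas Cxcl1 and Cxcl5 lie lower with TBLR1 shRNA.

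Ccl5 was the member that changed most. Its log2 level was 9.56, 9.57 and 9.17 on the untreated control arrays and 13.30, 13.34 and 13.21 on the untreated TBLR1 arrays. With isoproterenol it was 9.12, 8.75 and 9.00 with control shRNA and 13.32, 13.32 and 13.42 with TBLR1 shRNA. The lowest TBLR1 array thus lay above the highest control array by 3.64 log2 units without and 4.19 with the agonist. The difference was 3.85 ± 0.10 (adjusted p = 3.2e-13) and 4.39 ± 0.10 (adjusted p = 4.23e-14), or 14.4-fold and 21-fold. Among all 15267 genes the absolute change of Ccl5 ranked 2 in each comparison. Its probe set moved from the 83.9th percentile of the array to the 99.6th.

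Cxcl10, a CXCR3 ligand, followed the same order of groups with a wider spread among control arrays. It read 10.08, 9.42 and 9.23 on untreated control arrays and 12.82, 12.66 and 12.44 on untreated TBLR1 arrays. With isoproterenol the levels were 8.97, 8.43 and 8.46 with control shRNA and 12.87, 12.76 and 12.82 with TBLR1 shRNA. The TBLR1 arrays did not overlap with the control arrays, the TBLR1 groups overlapped with each other, and control replicate 1 was the highest of its 3 in each treatment. The gain with TBLR1 shRNA was 3.06 ± 0.17 without isoproterenol (8.35-fold, adjusted p = 1.42e-09) and 4.19 ± 0.17 with it (18.3-fold, adjusted p = 3.55e-11), ranking 4 and 3 by absolute change among all genes. Leaving out any 1 array gave 2.89 to 3.31 without and 4.10 to 4.37 with isoproterenol.

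Cxcl9, the other CXCR3 ligand measured, moved the same way by a much smaller amount. It read 6.96, 6.74 and 6.77 on untreated control arrays against 7.03, 7.01 and 7.01 on untreated TBLR1 arrays, and 6.64, 6.63 and 6.67 against 7.09, 7.19 and 7.21 with isoproterenol. All TBLR1 arrays lay above all control arrays, without isoproterenol by 0.05 log2 units only. Cxcl9 rose by 0.19 ± 0.05 (adjusted p = 0.00755) and by 0.51 ± 0.05 (adjusted p = 7.65e-07). Its probe set stayed between the 39.3rd and the 50.4th percentile of all probe sets. So dim a probe set may understate a change in mRNA, and the size of this rise cannot be set against that of Cxcl10.

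Sequence upstream of the start site is shown for Cxcl10 and Cxcl9, whose signals rose together but by unequal amounts, and for Cxcl1, whose signal fell. A link between sequence and these amounts was not tested. Each is the 250 bases before the start of the RefSeq transcript, read 5′ to 3′ on the gene's own strand in build GRCm38.p6, with matches to 5 searched motifs in capitals; 6 of the 10 genes have a promoter in the RefSeq table used, and Ccl2, Ccl5, Ccl7 and Cxcl5 are not shown. Cxcl10 lies at chr5:92348890-92349139 on the minus strand, Cxcl9 at chr5:92328080-92328329 on the minus strand, and Cxcl1 at chr5:90890995-90891244 on the plus strand.
Cxcl10: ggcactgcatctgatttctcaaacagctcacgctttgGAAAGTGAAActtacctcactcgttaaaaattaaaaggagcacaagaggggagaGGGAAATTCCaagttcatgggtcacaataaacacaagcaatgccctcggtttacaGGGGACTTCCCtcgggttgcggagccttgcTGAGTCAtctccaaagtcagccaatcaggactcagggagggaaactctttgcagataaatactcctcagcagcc
Cxcl9: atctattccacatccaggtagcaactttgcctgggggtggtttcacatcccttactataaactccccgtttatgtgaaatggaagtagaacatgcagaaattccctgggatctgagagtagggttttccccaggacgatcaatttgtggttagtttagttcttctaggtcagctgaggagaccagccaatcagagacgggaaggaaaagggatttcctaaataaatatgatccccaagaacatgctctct
Cxcl1: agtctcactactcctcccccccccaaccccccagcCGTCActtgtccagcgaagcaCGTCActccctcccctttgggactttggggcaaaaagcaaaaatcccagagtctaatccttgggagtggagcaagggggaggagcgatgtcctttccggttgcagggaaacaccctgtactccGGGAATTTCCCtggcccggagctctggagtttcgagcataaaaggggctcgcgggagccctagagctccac

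Motifs were searched on both strands over these 250 bases in all 32851 promoters of the table. The core of the interferon-stimulated response element, searched as GAAA, any 2 bases and GAAA again, was found in 2.98% of all promoters. Among the 6 members it was found only in Cxcl10, at positions -213 to -204 counted from the start. The NF-κB motif was searched as GGG, A or G, any 2 bases, 2 bases of C or T, and CC. This motif occurred in 7.25% of all promoters. It was found in 3 members: in Cxcl10 from -159, -104 and -103, the last 2 overlapping, in Cxcl1 from -71 and -70, also overlapping, and in Ccl20 from -80. The AP-1 motif TGANTCA (6.75% of all promoters) was found only in Cxcl10, from -74. The short cAMP response element motif TGACG (17.8%) was found in Cxcl1 and Cxcl12, and the γ-activated site TTCNNNGAA (7.02%) in no member. No motif was matched in Cxcl9 or Cx3cl1. A match is a run of letters in the reference genome and not a measured binding site. Variants that differ from the searched letters were not looked for. The absence of a match therefore excludes no binding, in these 250 bases or elsewhere.

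The monocyte attractants Ccl2 and Ccl7 rose less than Ccl5 and Cxcl10. Ccl2 read 12.00, 12.15 and 11.91 on untreated control arrays and 13.03, 12.89 and 12.83 on untreated TBLR1 arrays, and with isoproterenol 11.98, 11.83 and 11.80 against 12.96, 13.14 and 13.17. The 6 TBLR1 arrays lay above the 6 control arrays. Ccl2 was 1.86-fold higher without isoproterenol (0.90 ± 0.07, adjusted p = 6.93e-08) and 2.33-fold higher with it (1.22 ± 0.07, adjusted p = 1.58e-09).

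Ccl7 passed the test under isoproterenol and not without it; the difference between these effects, tested as an interaction, had an adjusted p of 0.0536. Its levels were 11.16, 11.22 and 10.86 on untreated control arrays and 11.43, 11.26 and 11.17 on untreated TBLR1 arrays, and these groups overlapped. With isoproterenol it read 10.91, 10.70 and 10.73 with control shRNA and 11.40, 11.56 and 11.45 with TBLR1 shRNA, which did not overlap. The difference was 0.21 ± 0.09 (adjusted p = 0.0736) without the agonist and 0.69 ± 0.09 (1.61-fold, adjusted p = 6.94e-06) with it. Without isoproterenol Ccl7 was called when control replicate 2 (0.28, adjusted p = 0.027) or TBLR1 replicate 3 (0.27, adjusted p = 0.0393) was left out, and also after cyclic loess normalisation (0.25, adjusted p = 0.0391) or centring on hybridisation controls (0.34, adjusted p = 5.7e-05).

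Cxcl1 and Cxcl5, the neutrophil attractants among the 10 members, went the other way. Their neighbours Cxcl2 (0.07 and -0.05) and Cxcl3 (0.00 and -0.01), outside the set, were called neither without nor with isoproterenol. Cxcl1 read 13.23, 13.35 and 13.14 on untreated control arrays and 12.95, 12.83 and 12.84 on untreated TBLR1 arrays, and with isoproterenol 13.14, 13.11 and 13.12 against 12.86, 12.96 and 12.98. No TBLR1 array reached a control array of the same treatment. Cxcl1 fell to 77.5% of the control signal (-0.37 ± 0.05, adjusted p = 3.02e-05) and, under isoproterenol, to 87.9% (-0.19 ± 0.05, adjusted p = 0.00815). The second of these calls was lost after cyclic loess normalisation (-0.13, adjusted p = 0.0589) and after centring the arrays on their hybridisation controls (-0.09, adjusted p = 0.339).

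Cxcl5 was lower with TBLR1 shRNA in each treatment. It read 12.65, 12.72 and 12.33 on untreated control arrays and 12.15, 12.07 and 12.28 on untreated TBLR1 arrays, and with isoproterenol 12.39, 12.21 and 12.17 against 11.91, 12.00 and 11.88. Control replicate 3 came within 0.06 of the highest TBLR1 array. Cxcl5 fell by 0.40 ± 0.09 on the log2 scale, to 75.6% (adjusted p = 0.00115), and by 0.32 ± 0.09, to 79.9% (adjusted p = 0.0053).

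The remaining ligands did not pass in either comparison of the shRNAs. Cxcl12 read 9.88 to 10.00 on untreated control arrays, 10.01 to 10.12 on untreated TBLR1 arrays, 9.97 to 10.21 on control arrays with isoproterenol and 9.96 to 10.25 on TBLR1 arrays with it. Its differences were 0.11 ± 0.07 (95% interval -0.05 to 0.26) without and 0.01 ± 0.07 (-0.14 to 0.16) with the agonist. Cx3cl1 read 7.81 to 7.96 and 7.76 to 7.82 without isoproterenol and 7.78 to 7.85 and 7.64 to 7.78 with it, control before TBLR1 shRNA. Its difference was -0.12 ± 0.05 in each treatment (adjusted p = 0.0689 and 0.0626), and it was called without control replicate 1 of the untreated arrays (-0.16, adjusted p = 0.0166, and with isoproterenol -0.12, adjusted p = 0.0419) and, under isoproterenol, without TBLR1 replicate 2 (-0.15, adjusted p = 0.0227). With dim genes left out, Cx3cl1 was called in both treatments (adjusted p = 0.0488 and 0.045). Ccl20 was the dimmest member relative to its array, at the 26.4th to 30.5th percentile, and its group means lay between 6.29 and 6.38. Its differences were -0.01 ± 0.05 and 0.08 ± 0.05, with 95% intervals of -0.11 to 0.10 and -0.02 to 0.19. These intervals describe the signal of the probe set. At so dim a level the signal may not follow the mRNA, so they cannot exclude a change in it. With hybridisation control centring Cxcl12 was called without (0.24, adjusted p = 0.00631) and Ccl20 with isoproterenol (0.18, adjusted p = 0.0463). That centring moved the median of all genes to 0.119 without and 0.088 with isoproterenol, and used nearly the same spread for all genes. This limit also holds for the values of Ccl7 and Cxcl1 given above with this centring.

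Counted together, 4 members rose with TBLR1 shRNA without isoproterenol (Ccl2, Ccl5, Cxcl9 and Cxcl10), 2 fell (Cxcl1 and Cxcl5) and 4 did not pass an adjusted p of 0.05. Over all genes 37.7% were called in that comparison, 17.7% higher and 20% lower, so being called is itself common and the size of the change says more than the count. With isoproterenol 5 rose, Ccl7 being the addition, 2 fell and 3 did not pass, against 41.7% of all genes called, 19.5% higher and 22.3% lower. Of the called genes 46.9% and 46.7% were thus higher, and 81% and 70.2% after centring on hybridisation controls. The median difference of the 10 members was 0.15 and 0.30, where the median of all genes was -0.010 and -0.008. Arrays of the shRNA groups did not overlap for 7 members without and 8 with isoproterenol, where this held for 46.9% and 49.1% of all genes. In the same comparisons the summed macrophage signal rose, the summed adipocyte and preadipocyte signals fell, and single macrophage and preadipocyte markers moved both ways, as given above. The log2 signal of actin probe sets at the 3′ end less that at the 5′ end, which reflects RNA quality, was 0.93 to 0.96 with control and 0.88 to 0.91 with TBLR1 shRNA without isoproterenol, and 0.98 to 1.04 and 0.99 to 1.05 with it. The part of the markers and of RNA quality in these results was not tested.

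**Figure D2:**
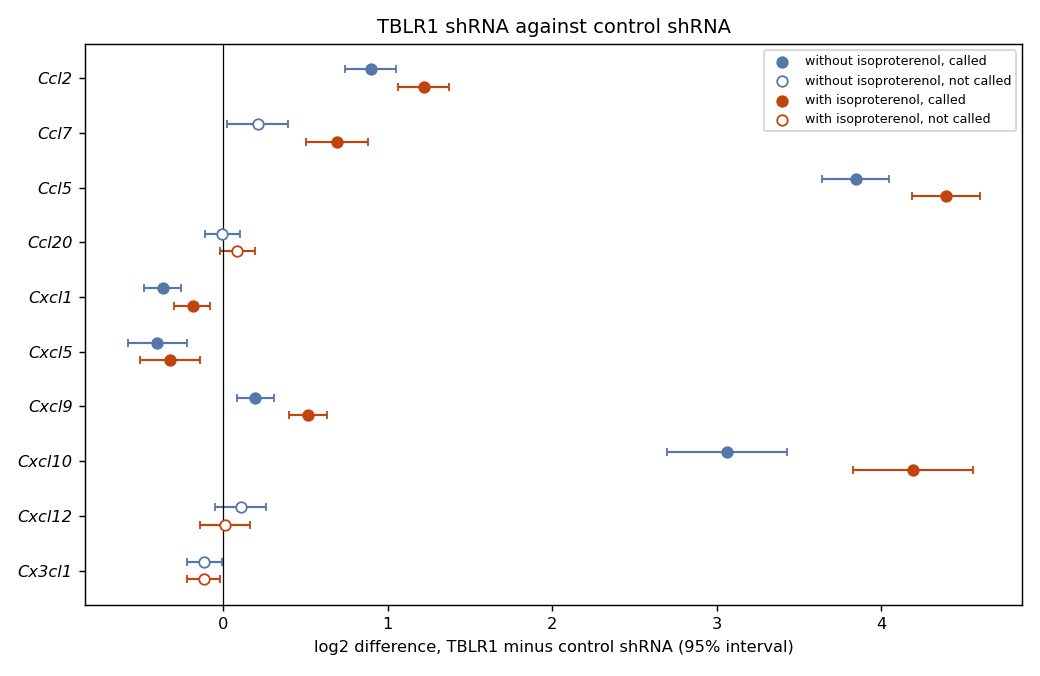
Log2 difference between TBLR1 and control shRNA for each chemokine gene, without (blue) and with (red) isoproterenol; bars are 95% intervals from the limma model and filled points passed an adjusted p of 0.05. Ccl5 and Cxcl10 stand between 3.06 and 4.39, Ccl2 at 0.90 and 1.22, and Cxcl1 and Cxcl5 below 0.

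In cells with the control shRNA, 5 of the 10 chemokine genes were lower after isoproterenol. Cxcl10 fell by 0.96 ± 0.17 on the log2 scale, to 51.6% of its untreated level (adjusted p = 0.000785), and Ccl5 fell by 0.47 ± 0.10, to 72.1% (adjusted p = 0.00222). For these genes every treated array lay below every untreated one, and their calls held in every alternative tried, with -1.13 to -0.71 and -0.60 to -0.37 when any 1 array was left out. Cxcl5 (-0.31 ± 0.09, adjusted p = 0.0162), Ccl7 (-0.30 ± 0.09, adjusted p = 0.0236) and Cxcl9 (-0.17 ± 0.05, adjusted p = 0.0314) also fell. In all 5 members fell and none rose, against 18.6% of all genes called, 7.7% higher and 10.9% lower. Arrays of the treatments did not overlap for 4 members and for 33.2% of all genes. Of these 4, Cxcl1 read 13.14 on both its lowest untreated and its highest treated array. The median of the 10 was -0.16 and that of all genes -0.004.

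The calls of the last 3 of these falls were lost without any of several single arrays, mostly with similar differences. Without the arrays that ended the call Ccl7 had -0.27 to -0.23 and Cxcl5 -0.29 to -0.23. Their calls were lost without untreated control replicate 1 (adjusted p = 0.0945 and 0.0716), untreated replicate 2 (0.122 and 0.0919), isoproterenol replicate 2 (0.0937 and 0.0604) or isoproterenol replicate 3 (0.0865 and 0.0767). The call of Cxcl9 was lost without untreated control replicate 1, where the difference shrank to -0.10 (adjusted p = 0.163), and without isoproterenol replicate 1, 2 or 3, where it was -0.17, -0.16 and -0.18 (adjusted p = 0.0811, 0.0887 and 0.0606), and with hybridisation control centring (0.129) or a fit to only the 6 arrays compared (0.0589). Cxcl1 was called without untreated control replicate 3 (-0.17, adjusted p = 0.0445). The count of members called was thus 2 without untreated control replicate 1, isoproterenol replicate 2 or isoproterenol replicate 3, and 3 without untreated control replicate 2. Ccl2 (-0.15 ± 0.07, adjusted p = 0.198), Cxcl1 (-0.12 ± 0.05, adjusted p = 0.138) and Cx3cl1 (-0.09 ± 0.05, adjusted p = 0.259) had negative values that did not pass, Cxcl12 (0.11 ± 0.07) and Ccl20 (0.00 ± 0.05) did not pass either. The actin 3′ excess was 0.93 to 0.96 on untreated control arrays and 0.98 to 1.04 on treated ones, and its part was not tested.

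With TBLR1 shRNA none of the 10 members was called in response to isoproterenol by limma, and 3 had an unadjusted p under 0.05. Over all genes 8.86% were called, 4.09% higher and 4.78% lower. Of those called 46.1% were higher, against 35.7% with hybridisation control centring and 56.5% with cyclic loess. The 3 members with an unadjusted p under 0.05 were Ccl2 (0.17 ± 0.07, adjusted p = 0.161), Cxcl9 (0.15 ± 0.05, adjusted p = 0.104) and Cxcl5 (-0.23 ± 0.09, adjusted p = 0.106). Cxcl9 was called without untreated control replicate 1 (adjusted p = 0.038) and Cxcl5 without untreated control replicate 3 (adjusted p = 0.0285); these arrays enter this comparison only through the shared estimate of spread. Cxcl10 (0.17 ± 0.17, 95% interval -0.19 to 0.54) and Ccl5 (0.07 ± 0.10, -0.13 to 0.28) had intervals that did not reach the falls measured with control shRNA. At these levels the probe sets of Ccl5, Cxcl10 and Ccl2 lay at the 99th percentile or above, with means of 12.64 to 13.35 where the highest value in the table is 14.58. The median of the 10 members was 0.08. Arrays of the treatments did not overlap for 3 members, Cxcl5, Cxcl9 and Ccl20, and for 25.2% of all genes. The actin 3′ excess was 0.88 to 0.91 without and 0.99 to 1.05 with isoproterenol on these arrays, and its part was not tested.

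**Figure D3:**
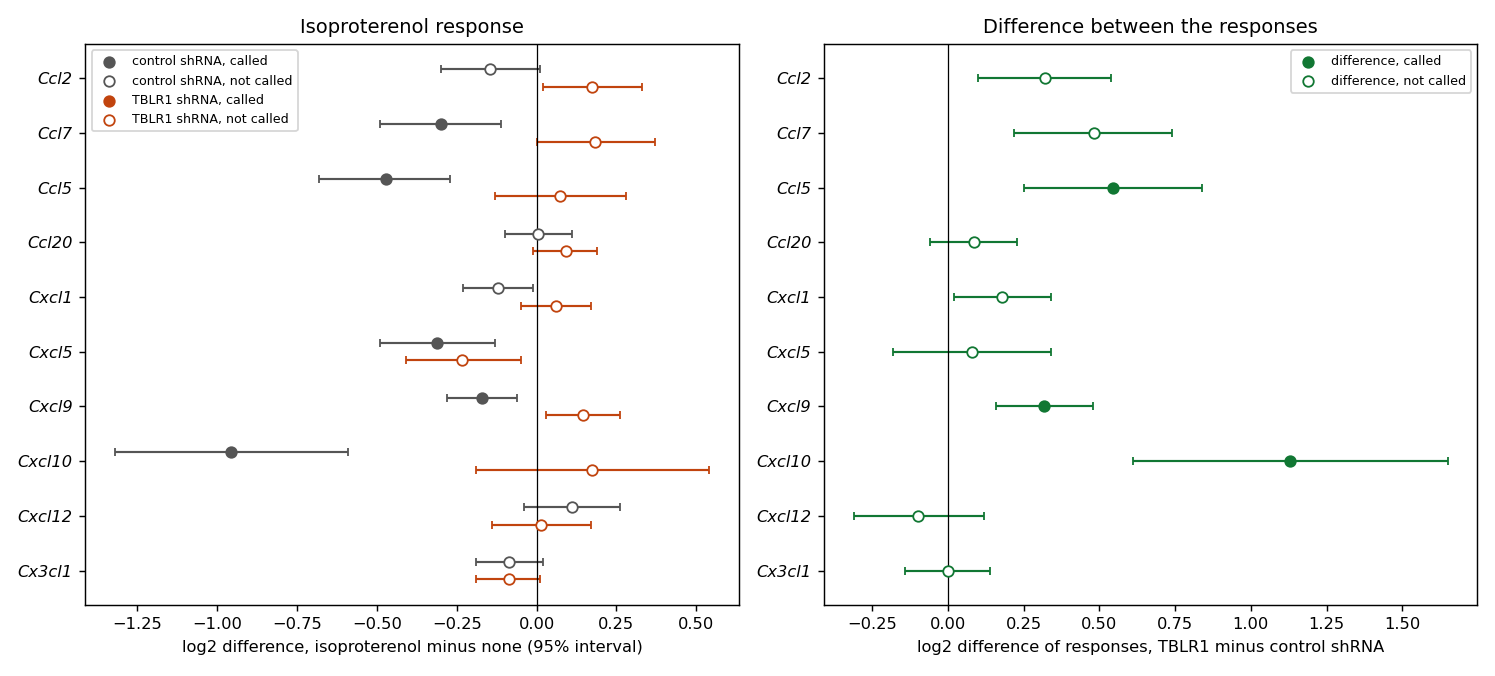
Left, log2 difference between isoproterenol and no treatment for each chemokine gene, with control shRNA (grey) and TBLR1 shRNA (red); right, the difference between these responses; bars are 95% intervals and filled points passed an adjusted p of 0.05. Cxcl10 lies at -0.96 with control shRNA and at 0.17 with TBLR1 shRNA, a difference of 1.13.

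The difference between the responses was itself tested as an interaction. It was positive for 8 of the 10 members, and 3 passed: Cxcl10 (1.13 ± 0.24, adjusted p = 0.0223), Ccl5 (0.55 ± 0.14, adjusted p = 0.0479) and Cxcl9 (0.32 ± 0.07, adjusted p = 0.0349). Over all genes 2.4% were called, 1.07% higher and 1.33% lower, so that 44.5% of called genes were higher, against 28.6% with hybridisation control centring. Ccl7 came close (0.48 ± 0.12, adjusted p = 0.0536), Ccl2 followed (0.32 ± 0.10, adjusted p = 0.134), and Cxcl1 had 0.18 ± 0.07 (adjusted p = 0.279). Cxcl5 had 0.08 ± 0.12 and Ccl20 0.09 ± 0.07, while Cxcl12 (-0.10 ± 0.10) and Cx3cl1 (-0.00 ± 0.07) were negative. The median of the members was 0.25 and that of all genes 0.001. By rank of absolute difference Cxcl10 was number 5 and Ccl5 number 64 among all genes.

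These calls lay close to the threshold. That of Cxcl10 was lost without untreated TBLR1 replicate 2 (adjusted p = 0.052) or 3 (0.0649), treated control replicate 2 (0.064) or 3 (0.0643), or treated TBLR1 replicate 3 (0.0569), with values of 0.88 to 1.30 over all arrays left out in turn. Among fits that left out 1 array, that of Ccl5 was kept without untreated control replicate 3 or treated control replicate 1 (lowest adjusted p = 0.00416), was lost without any of the other 10, and reached 0.134 without untreated control replicate 2. That of Cxcl9 was kept without untreated control replicate 2, untreated control replicate 3 or treated TBLR1 replicate 1, was lost without any of the other 9 arrays, and reached 0.102 without treated TBLR1 replicate 3. Ccl7 was called without untreated control replicate 3 (0.59, adjusted p = 0.0067), untreated TBLR1 replicate 1 (0.55, adjusted p = 0.0268) or treated control replicate 1 (0.54, adjusted p = 0.0398). The number of members called was 0 without untreated TBLR1 replicate 2 or 3, treated control replicate 2 or 3, or treated TBLR1 replicate 3, and 1 without untreated control replicate 1 or treated TBLR1 replicate 2. At an unadjusted p under 0.05 it was 5 or 6 throughout. With trend and robust settings of limma's variance model Cxcl9 alone was called (adjusted p = 0.0349). Cyclic loess ended the call of Ccl5 (adjusted p = 0.0505), and hybridisation control centring ended that of Cxcl9 (0.28, adjusted p = 0.238) and called Ccl7 (0.45, adjusted p = 0.00355), as did leaving out dim genes (adjusted p = 0.0445).

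Set in order of level, the groups fell into a recurring sequence. For Ccl2, Ccl5, Ccl7, Cxcl9 and Cxcl10 the highest mean was that of TBLR1 shRNA with isoproterenol, followed by TBLR1 shRNA alone, untreated control cells and control cells with isoproterenol. Neighbouring groups in this order did not overlap for Cxcl9, whereas the TBLR1 groups overlapped for the other 4, all neighbouring groups overlapped for Ccl7, and the control groups overlapped for Ccl2. For Cxcl1 untreated control cells were highest and untreated TBLR1 cells lowest. Only the TBLR1 groups overlapped, although the control groups met at 13.14 to the printed precision. For Cxcl5 untreated control cells were highest and TBLR1 cells with isoproterenol lowest, with no overlap between the TBLR1 groups and overlap elsewhere. For Cx3cl1 the order was that of Cxcl5 and all neighbouring groups overlapped, and for Cxcl12 and Ccl20 the group means lay too close together for an order. The span from the lowest to the highest group mean was 4.39 for Ccl5, 4.19 for Cxcl10, 1.22 for Ccl2, 0.69 for Ccl7, 0.64 for Cxcl5, 0.51 for Cxcl9, 0.37 for Cxcl1, 0.20 for Cx3cl1, 0.12 for Cxcl12 and 0.09 for Ccl20. The median SD within a group was 0.02 to 0.25 for these genes.

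Several members lie next to each other in the genome, and their neighbours are given beside them. On chromosome 11 the table of RefSeq genes lists Ccl2, Ccl7, Ccl11, Ccl12, Ccl8 and Ccl1 in this order. Besides Ccl2, only Ccl8, a monocyte attractant, was called there without isoproterenol, at 1.45 ± 0.09 (adjusted p = 5.21e-09), and it read 1.92 with isoproterenol; Ccl11, Ccl12 and Ccl1, named for their position, had 0.03, 0.07 and -0.02. Next to Ccl5 on the same chromosome come Ccl9, Ccl6, Ccl3 and Ccl4, which had 0.31, -0.08, -0.06 and 0.01 without isoproterenol. Of these Ccl9 was called (adjusted p = 0.000149), and with isoproterenol Ccl6 was (-0.27, adjusted p = 0.000297). On chromosome 5 Art3 lies between Cxcl9 and Cxcl10 and had -0.08 (adjusted p = 0.323) without isoproterenol and -0.21 (adjusted p = 0.00502) with it. Sdad1, on the other side of Cxcl9, had 0.20 (adjusted p = 0.0027) and 0.19 (adjusted p = 0.00369), where Cxcl9 had 0.19 and 0.51. Nup54, on the other side of Cxcl10, had 0.09 (adjusted p = 0.125) and 0.27 (adjusted p = 6.46e-05), where Cxcl10 had 3.06 and 4.19. Between Cxcl5 and Cxcl1 lie Ppbp, Pf4, Cxcl3 and Cxcl15, and Cxcl2 follows Cxcl1; these 5 had -0.07 to 0.07 without isoproterenol, and with it -0.13 to -0.01, of which Cxcl15 was called (adjusted p = 0.0361). These genes were chosen for position after values of the list had been seen.

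Lists of other genes of chemokine signalling had medians near 0 and a few members with large changes. Their counts are to be read against the 37.7% and 41.7% of all genes called without and with isoproterenol. Of 22 other chemokine ligands measured, 3 rose and 2 fell without isoproterenol and 2 rose and 5 fell with it, with medians of 0.00 and -0.01; Ccl8 led, and Ccl17, a ligand of CCR4, was lower (-0.34 ± 0.06 and -0.31 ± 0.06). Of 16 chemokine receptors 0 rose and 1 fell without isoproterenol, the fall being Cxcr3 (-0.12 ± 0.04, adjusted p = 0.0325), and 1 rose and 0 fell with it, Xcr1 (0.12 ± 0.04, adjusted p = 0.0464). Ccr2, the receptor of Ccl2 and Ccl7, had 0.02 ± 0.04 (adjusted p = 0.797). Of 5 atypical receptors 1 was called, Ccrl2, which binds chemerin and was 1.62-fold higher without (0.69 ± 0.06, adjusted p = 2.89e-07) and 2.15-fold higher with isoproterenol (1.10 ± 0.06, adjusted p = 1.22e-09). The response of Ccrl2 to isoproterenol differed between the shRNAs (0.41 ± 0.09, adjusted p = 0.0263). Of 8 proteases that cut or shed chemokines, 3 fell and none rose without isoproterenol and 2 fell with it. Mmp2, a gelatinase that cleaves Ccl7 and Cxcl12, led, at 2.2-fold lower without (adjusted p = 1.61e-10) and 2-fold lower with isoproterenol (adjusted p = 4.55e-10).

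**Figure D4:**
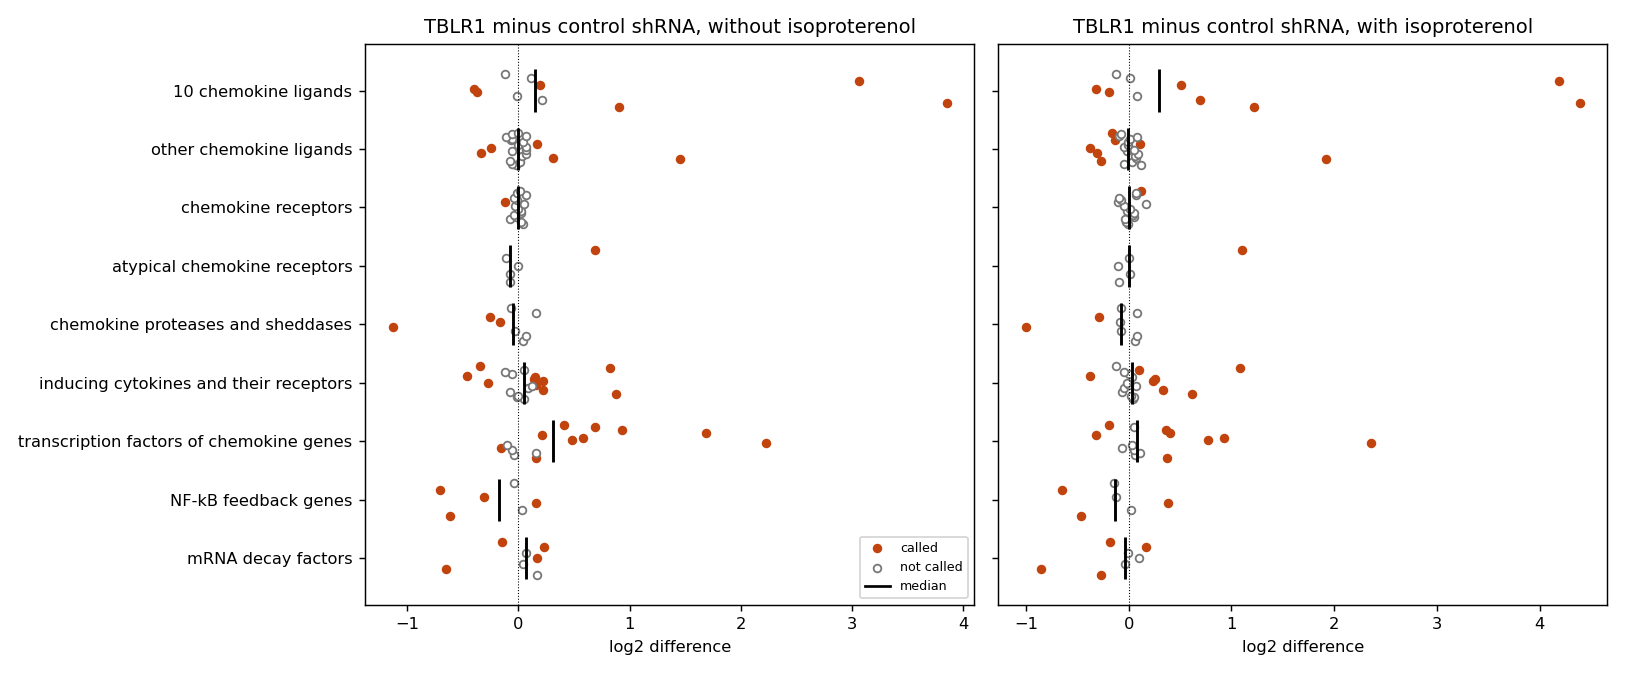
Log2 difference between TBLR1 and control shRNA for the 10 chemokine ligands and for 8 lists of related genes, without (left) and with (right) isoproterenol; each point is a gene, filled where it passed an adjusted p of 0.05, and the bar is the median of the list. The largest values belong to Ccl5 and Cxcl10, at 3.06 to 4.39, and the 16 receptors lie close to 0.

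Upstream genes changed in both directions. Of 14 measured transcription factors of chemokine genes, 9 rose and 1 fell without isoproterenol (median 0.31) and 6 rose and 2 fell with it (median 0.09), against 37.7% and 41.7% of all genes called. Irf7, the interferon regulatory factor of the late interferon response, rose by 2.23 ± 0.06 (adjusted p = 7.21e-13) and 2.36 ± 0.06 (adjusted p = 3.02e-13). Fos and Fosl1, subunits of AP-1, rose by 1.69 ± 0.13 and 0.93 ± 0.10 without isoproterenol and by 0.40 ± 0.13 and 0.36 ± 0.10 with it. Stat2 and Irf9, which act downstream of the type I interferon receptor, rose by 0.58 ± 0.06 and 0.48 ± 0.10 without isoproterenol and by 0.93 ± 0.06 and 0.77 ± 0.10 with it. In the list of 6 NF-κB feedback genes, 1 rose and 3 fell without isoproterenol and 1 rose and 2 fell with it. Nfkbia, which encodes the inhibitor IκBα, fell by 0.62 ± 0.04 (adjusted p = 1.51e-09) and by 0.46 ± 0.04 (adjusted p = 2.94e-08), and Tnip1, a partner of the deubiquitinase A20, fell by 0.71 ± 0.06 and by 0.65 ± 0.06.

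Of 19 cytokines and receptors that induce chemokines, 7 rose and 3 fell without isoproterenol and 6 rose and 1 fell with it, where 37.7% and 41.7% of all genes were called, so that the second count is near the background. Il6 rose by 0.88 ± 0.16 and 0.62 ± 0.16, Tlr3, the sensor of double-stranded RNA, rose by 0.82 ± 0.09 and 1.08 ± 0.09, and Ifngr1, a chain of the interferon-γ receptor, fell by 0.46 ± 0.04 and by 0.38 ± 0.04. Of 7 regulators of mRNA decay, several of which act on AU-rich transcripts such as those of some chemokines, 2 rose and 2 fell without isoproterenol and 1 rose and 3 fell with it, led by Zfp36l1 (-0.65 ± 0.07 and -0.85 ± 0.07).

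In the isoproterenol comparisons, with 18.6% of all genes called with control and 8.86% with TBLR1 shRNA, the same lists gave other leaders. With control shRNA Zfp36, which encodes tristetraprolin, a decay factor of AU-rich mRNA, rose by 1.09 ± 0.08 (2.13-fold, adjusted p = 7.47e-08) and with TBLR1 shRNA by 0.65 ± 0.08 (1.57-fold, adjusted p = 6.7e-05), with a difference between the responses of -0.44 ± 0.11 (adjusted p = 0.0535). Il6 rose by 1.43 ± 0.16 with control and 1.18 ± 0.16 with TBLR1 shRNA, while the members described above fell or did not pass. Tlr4, the lipopolysaccharide receptor, fell by 0.67 ± 0.06 and by 0.43 ± 0.06. Of the 6 NF-κB feedback genes 4 fell and 1 rose with control shRNA, and 1 fell and 0 rose with TBLR1 shRNA, the latter being Tnip1 (-0.26 ± 0.06, adjusted p = 0.0169). Among the transcription factors Fos rose by 2.14 ± 0.13 with control and 0.85 ± 0.13 with TBLR1 shRNA, and the difference between these responses passed (-1.29 ± 0.18, adjusted p = 0.00108). Cebpb, a C/EBP factor of adipocytes, rose by 1.10 ± 0.04 with control and 0.50 ± 0.04 with TBLR1 shRNA, a difference of -0.60 ± 0.06 (adjusted p = 5.3e-05). Of the other chemokine ligands Ccl9 rose with isoproterenol under both shRNAs (0.51 ± 0.05 and 0.26 ± 0.05), in contrast to the 5 members that fell with control shRNA. Cxcl13 also rose under both (0.20 ± 0.04 and 0.14 ± 0.04). Ccl6 was called higher with control shRNA only (0.19 ± 0.05) and Ccl8 with TBLR1 shRNA only (0.41 ± 0.09). For these genes the difference between the responses did not pass (interaction adjusted p = 0.204 for Ccl6 and 0.0762 for Ccl8).

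The genes outside the set whose levels over the 12 arrays were most like those of a member were named for the 3 members whose group means spanned at least 1 log2 unit. For Cxcl10 they were Usp18 (Pearson r = 0.999), Samd9l (0.999) and Gbp7 (0.997), and for Ccl5 they were Zc3hav1 (0.998), Oas2 (0.997) and Shisa5 (0.997). For Ccl2 they were Tnfaip2 (0.995), Tcirg1 (0.992) and Dok1 (0.992). Within the set Ccl5 and Cxcl10 were closest to each other (0.990), Ccl2 was closest to Ccl5 (0.985), and Cxcl9 was closest to Cxcl10 (0.937). The closest member to Ccl7 was Cxcl9 (0.903), and Cxcl1 and Cxcl5 were closest to each other (0.798). Each r is over 12 arrays that fall into 4 groups, so it mainly measures a shared order of group means and is given as a description.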

How the data were processed

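The deposited table holds log2 expression values per probe set for 12 arrays. The scale was read from the values (5.391 to 14.58); the authors' values were already quantile normalised, since the sorted values of each array matched those of every other to within 0.00781. How background was corrected and probes were summarised is not stated in the sources used here. Each change is therefore relative to the bulk of genes. Across genes, arrays of a group correlated at 0.998 to 0.999. Of 16553 probe sets, 61 were controls, 1222 had no symbol in the platform annotation, which can be old, and 15270 had 1 symbol; the brightest probe set was kept for 3 genes with more than 1, leaving 15267 genes. Arrays give no counts, so their number limits the precision.

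limma 3.58.1 (R 4.3.3) estimated 4 group means from the 12 arrays together (8 residual and 7.38 prior degrees of freedom) and 5 two-sided contrasts were tested. Every adjusted p is limma's after Benjamini-Hochberg adjustment over all genes within a contrast, and called means under 0.05. Comparisons that share groups rest partly on the same arrays. The code was tested on simulated data with known changes.

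The members and the 8 gene lists and 6 marker lists (155 genes, 140 matched by symbol or through RefSeq gene IDs) were chosen with earlier results of these data known. Named were all members, Tbl1xr1, per list up to 3 called genes of largest change or the 1 of smallest p, and 3 similar genes for members spanning at least 1 log2 unit; others were named after values were seen, for position, receptor or role. Genes not matched were not analysed here. Alternatives were hybridisation control centring (18 probe sets), cyclic loess, eBayes with trend and robust settings, the 6 arrays compared, a replicate block, leaving out the dimmest genes (10178 kept), averaged probe sets and leaving out each array. Promoters are from RefSeq, build GRCm38.p6. Figures used matplotlib 3.10.9 in Python 3.11.15.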

Additional observations from a re-analysis of the deposited data

Results flagged for a closer look

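The response to isoproterenol differed between the shRNAs, by the interaction term of the limma model, for 3 of the 10 chemokine genes. These calls depended on the fit. Over 18 alternatives that of Ccl5 was lost in 13, that of Cxcl9 in 11 and that of Cxcl10 in 6. Cxcl10 differed by 1.13 on the log2 scale (95% interval 0.61 to 1.65), with -0.96 under control and 0.17 under TBLR1 shRNA. Ccl5 differed by 0.55 (0.25 to 0.84), with -0.47 and 0.07, and Cxcl9 by 0.32 (0.16 to 0.48), with -0.17 and 0.15. In each case the response with control shRNA was a fall that passed and the response with TBLR1 shRNA did not pass. Equivalently, the shRNA difference was larger with isoproterenol than without. No test of single outlying arrays was run on groups of 3.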

How the results depend on the processing

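Over the values of single members under the alternatives, 46 lost a call, 23 gained one and 19 changed sign, each of the last for a result not called with all arrays. Averaging probe sets could not change a member, since each has 1. The number of members called under TBLR1 shRNA stayed at 6 or 7 without and 7 or 8 with isoproterenol when arrays were left out. It was 2 to 6 for isoproterenol with control shRNA, 0 to 1 with TBLR1 shRNA (0 to 5 at an unadjusted p) and 0 to 4 for the difference between responses. For isoproterenol with TBLR1 shRNA it was 1 with hybridisation control centring and 1 with only the 6 arrays compared, Cxcl5 in each case. With trend and robust settings it was 1 for the difference between responses, where Ccl5 and Cxcl10 had an adjusted p of 0.124 and 0.139. The cause was not tested.

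With arrays centred on hybridisation controls the TBLR1 shRNA median of all genes was 0.119 rather than -0.010 without isoproterenol. Its prior degrees of freedom were 398, so nearly the same spread was used for all genes. It turned Ccl20 to 0.12 and Cx3cl1 to 0.01 for TBLR1 shRNA without isoproterenol, Ccl20 to -0.0013 for isoproterenol with control shRNA and Cxcl12 to -0.02 with TBLR1 shRNA. The number of genes called fell from 2833 to 1703 for isoproterenol with control shRNA and from 366 to 227 for the difference between responses. Leaving out 1 array gave -0.04 to 0.06 for Ccl20 under TBLR1 shRNA without isoproterenol, -0.01 to 0.01 for Ccl20 under isoproterenol with control shRNA, -0.08 to 0.08 and -0.07 to 0.07 for Cxcl12 under TBLR1 shRNA with isoproterenol and under isoproterenol with TBLR1 shRNA, and -0.04 to 0.05 for Cx3cl1 in the difference between responses. The filter on dim genes removed Ccl20. The interaction could not be fitted from the 6 arrays of 1 comparison.

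No pairing of the arrays by replicate number was visible. Deviations of 2 of 18 same-numbered pairs correlated over 0.1 (-0.209 to 0.183), and 1 of 12 arrays correlated best with its own number. Such values cannot exclude that same-numbered arrays shared a culture or a batch. With the replicate block 7, 7, 5, 0 and 2 members were called in the 5 comparisons, against 6, 7, 5, 0 and 3. In the difference between responses the block ended the calls of Ccl5 (adjusted p = 0.0604) and Cxcl9 (0.0581) and added Ccl7 (0.0316), and it also added Ccl7 under TBLR1 shRNA without isoproterenol (0.0407).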
